A study of Mus musculus with 4 samples.

Results

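Chemokines are small secreted proteins that guide moving cells, and chemokine receptors are the membrane proteins that read them. The members described here were chosen by gene name: every probe set annotated with 1 gene symbol that is made of Ccl, Cxcl, Ccr, Cxcr or Cx3cr followed directly by a number. This rule gave 54 probe sets of 49 genes, out of 28853 probe sets counted on the array, of which 21789 carry 1 symbol. The 54 divide into 37 chemokine probe sets (32 genes) and 17 receptor probe sets (17 genes). The rule also asks which members reach a log2 signal of 6, and those levels are given as a description.

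RNA came from donor-derived progenitors of fetal liver chimeras, sorted from the BM 4 weeks after fetal liver cells had been injected into B6.SJL mice irradiated with 1200 rad. There were 4 groups with 1 array each, which were *Bcl11a*-/- MPPs, WT MPPs, *Bcl11a*-/- GMPs and WT GMPs. MPPs (multipotent progenitors) were LSK cells that lacked CD150, GMPs (granulocyte-macrophage progenitors) came from the same BM, and cells were pooled by donor genotype. The *Bcl11a*-/- allele is a germline deletion of the first exon of a transcription factor gene, so every donor cell carried it from conception, while the irradiated hosts of both groups had their own *Bcl11a*. How many mice went into each pool is not stated. With 1 array per group, no difference below has a replicate check, and none has a p-value or an SD.

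*Bcl11a* itself had a signal of 8.64 in *Bcl11a*-/- MPPs, against 9.89 in WT MPPs, and of 7.77 in *Bcl11a*-/- GMPs, against 8.60 in WT GMPs. It was lower in both, by 2.39-fold and 1.78-fold, which is a weak check of the genotype labels because probes outside the deleted exon can still find transcript. All 9 genes of a GMP marker list had less signal in MPPs than in GMPs of either genotype, and 6 of 7 measured MPP markers had more, the exception being *Slamf1*, which encodes the CD150 by whose absence MPPs were sorted. The median log2 difference over all probe sets was 0.05 between *Bcl11a*-/- and WT MPPs and 0.01 between *Bcl11a*-/- and WT GMPs.

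Most chemokine receptors signal through inhibitory G proteins toward the cytoskeleton, and a receptor often answers to several ligands. In the BM, Cxcl12 made by stromal cells holds Cxcr4-bearing progenitors in place, Ccr2 lets monocytes leave for the blood, and Cxcr2 lets neutrophils leave. Ccl3, also called MIP-1 alpha, is known as an inhibitor of the division of early progenitors as well as an attractant of monocytes. Myeloid cells make Ccl3, Ccl4 and Cxcl2 quickly upon activation, and interferon gamma induces Cxcl9 and Cxcl10.

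Of the 54 members, 19 reached a log2 signal of 6 on at least 1 array, 11 chemokine and 8 receptor probe sets, each of a different gene. On all 4 arrays 14 of them did so. By array there were 17 members at this level in *Bcl11a*-/- MPPs and 17 in WT MPPs, with 14 in *Bcl11a*-/- GMPs and 15 in WT GMPs. The chemokines were *Ccl3*, *Ccl4*, *Ccl5*, *Ccl6*, *Ccl9*, *Cxcl1*, *Cxcl2*, *Cxcl9*, *Cxcl10*, *Ccl19* and *Ccl25*. The receptors were *Ccr1*, *Ccr2*, *Ccr7*, *Cxcr2*, *Cxcr3*, *Cxcr4*, *Cxcr6* and *Cx3cr1*. Closest to the level from above were *Cxcl1* at 6.01, *Cxcr6* at 6.20, 1 probe set of *Ccl19* at 6.32 and *Ccr7* at 6.38, each at its highest array. Closest from below were *Cxcl16* at 5.81, *Ccl7* at 5.75 and other probe sets of *Ccl19* at 5.74 and 5.70.

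**Figure D1:**
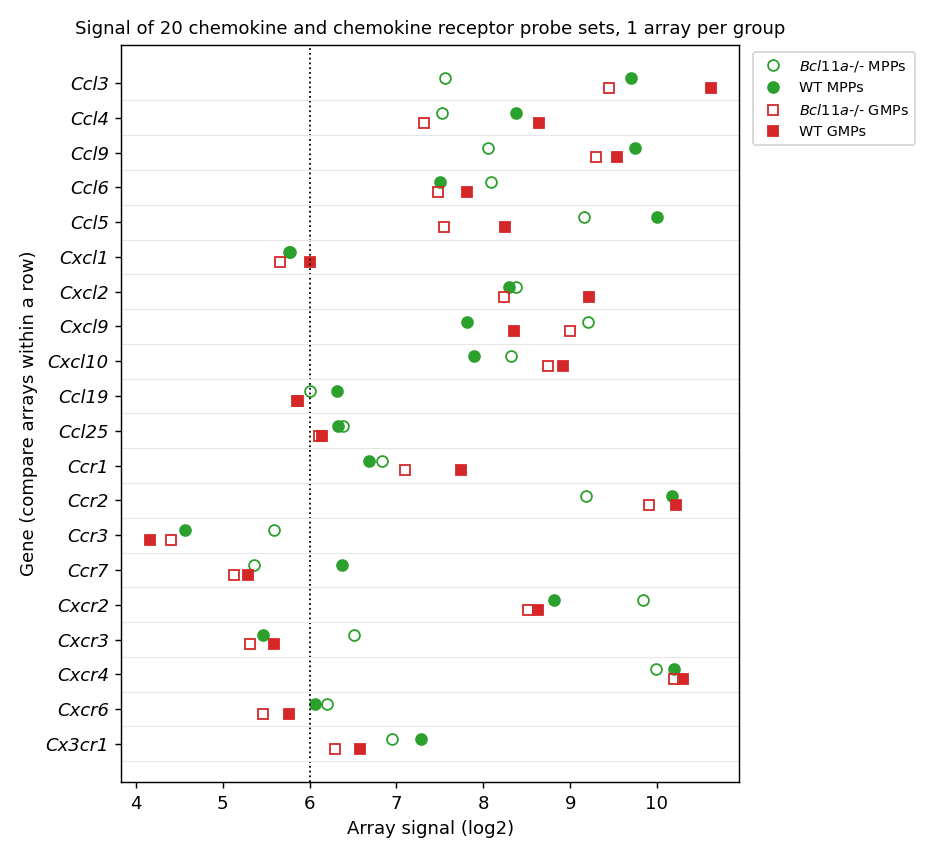
Array signal (log2, x axis) of the 19 member probe sets that reach a log2 signal of 6 (dotted line) and of *Ccr3*, 1 row per gene and 1 array per point, with open symbols for *Bcl11a*-/- and filled symbols for WT cells, circles for MPPs and squares for GMPs. Points are to be compared within a row: the open circle of *Ccl3* lies at 7.56 and the filled one at 9.70, whereas the 4 points of *Cxcr4* lie between 9.99 and 10.30.

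*Ccl3* had the largest difference of any member, and it was lower in both *Bcl11a*-/- populations. Its signal was 7.56 in *Bcl11a*-/- MPPs, against 9.70 in WT MPPs, 4.41-fold lower. Its GMP signals were 9.45 in *Bcl11a*-/- cells and 10.62 in WT cells, 2.26-fold lower. *Ccl9*, a chemokine of rodents that binds Ccr1, was 8.05 in *Bcl11a*-/- MPPs, against 9.74 in WT MPPs, 3.23-fold lower. The GMP arrays were closer for *Ccl9*, at 9.29 in *Bcl11a*-/- and 9.54 in WT cells, 1.18-fold lower. Of all 28853 probe sets, 0.243% had an MPP difference as low as that of *Ccl3* or lower, and 0.589% one as low as that of *Ccl9*. In RNA of a sorted population, fewer cells of a type and less RNA per cell cannot be told apart.

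*Ccl3* and *Ccl9* were the only chemokines more than 2-fold lower in *Bcl11a*-/- MPPs, and both are encoded on the minus strand of chromosome 11. Their 150 bases before the start of transcription, from RefSeq promoters on GRCm38.p6, are shown because these members differed most. Both strands of 250 bases before the start were searched for TGACCA, a motif known for BCL11A from human erythroid cells, for GAGGAA, a core bound by the myeloid factor PU.1, for TGANTCA of AP-1, and for TATAAA. Capitals mark the matches, and they include matches read on the opposite strand, where TGACCA appears as TGGTCA and GAGGAA as TTCCTC.
Ccl3, chr11:83649379-83649528, minus strand: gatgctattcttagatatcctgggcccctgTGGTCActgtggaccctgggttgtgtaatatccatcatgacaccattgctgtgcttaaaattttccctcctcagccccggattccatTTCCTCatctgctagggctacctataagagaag
Ccl9, chr11:83578637-83578786, minus strand: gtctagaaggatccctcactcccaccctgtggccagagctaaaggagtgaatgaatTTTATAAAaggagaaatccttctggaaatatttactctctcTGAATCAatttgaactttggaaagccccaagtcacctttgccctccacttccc

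In the *Ccl3* stretch the matches are to TGACCA and GAGGAA, and in the *Ccl9* stretch to TGANTCA and to TATAAA, which overlaps itself on the 2 strands. TGACCA is found in 11.4% of all 32536 distinct promoters searched, and in 5 of the 17 promoters of the 16 member genes that reached a signal of 6 and were matched, those of *Ccl3*, *Ccl6*, *Ccl25*, *Ccr1* and *Cxcr3*. These 5 genes did not share a direction in *Bcl11a*-/- MPPs: *Ccl3* was lower by more than 2-fold, *Cxcr3* was higher by more than 2-fold, and the others were within 2-fold. GAGGAA is in 23.4% of all promoters and in 4 of the 17 (*Ccl3*, *Ccr1*, *Cxcr2* and *Cxcr3*), TGANTCA in 6.73% and in 2 (*Ccl9* and *Cxcl10*), and TATAAA in 12.3% and in 4 (*Ccl9*, *Ccl25*, *Cxcl9* and *Cxcr4*). A match describes letters in a window and is not a measured binding site.

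*Ccl3* and *Ccl9* lie in a row of CC chemokine genes, in the order *Ccl5*, the pseudogene *Ccl16-ps*, *Ccl9*, *Ccl6*, *Ccl3* and *Ccl4* in the RefSeq annotation, and all 5 of the intact genes reached a signal of 6 on every array. In *Bcl11a*-/- MPPs 4 of these 5 were lower than in WT MPPs and *Ccl6* was higher. *Ccl4*, also called MIP-1 beta and an attractant of monocytes, was 7.52 in *Bcl11a*-/- MPPs, against 8.38 in WT MPPs, 1.81-fold lower, and 7.32 in *Bcl11a*-/- GMPs, against 8.64 in WT GMPs, 2.50-fold lower. *Ccl5*, also called RANTES and a ligand of Ccr1 and Ccr3, was 9.16 in *Bcl11a*-/- MPPs, against 9.996 in WT MPPs, and 7.55 in *Bcl11a*-/- GMPs, against 8.25 in WT GMPs, so it was lower by 1.78-fold and 1.63-fold. *Ccl6*, another chemokine of rodents, was 8.09 in *Bcl11a*-/- MPPs, against 7.50 in WT MPPs, 1.51-fold higher. Its GMP signals were 7.48 in *Bcl11a*-/- cells and 7.81 in WT cells, a log2 difference of −0.33. *Ccl6*, which lies between *Ccl9* and *Ccl3*, thus differed from both in the direction of its MPP difference. In GMPs all 5 genes had less signal in *Bcl11a*-/- cells, with *Ccl3* and *Ccl4* past 2-fold.

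Genes of monocytes and macrophages, which make these chemokines, were compared as well. On a list of 16, of which 15 were measured, 3 were past 2-fold on the lower side in *Bcl11a*-/- MPPs and 0 on the higher side (*Ly86*, *F13a1* and *Ms4a6c*, at −2.14, −1.16 and −1.13), with 9 below 0, 6 above 0 and a median difference of −0.10 (median list signals of 6.93 in *Bcl11a*-/- MPPs and 7.62 in WT MPPs). In GMPs 13 of the 15 were below 0 with a median of −0.33, and *Ly86* was at −1.22. The GMP list had 4 of 9 genes more than 2-fold lower in *Bcl11a*-/- MPPs (*Ms4a3* at −2.68, *Prtn3* at −2.65 and *Elane* at −2.44 among them) and none in *Bcl11a*-/- GMPs. Inflammatory and immediate early genes, which respond to handling of cells, were below 0 for 12 of 15 in MPPs and 14 of 15 in GMPs, with medians of −0.24 and −0.40. The part of these in the *Ccl3*, *Ccl4* and *Ccl9* differences was not tested.

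Among the 37 member chemokine probe sets, that of *Cxcl9* was the only one higher by more than 2-fold in *Bcl11a*-/- cells. Cxcl9 recruits T and NK cells through Cxcr3. Its signal was 9.21 in *Bcl11a*-/- MPPs, against 7.81 in WT MPPs, 2.64-fold higher, and 8.99 in *Bcl11a*-/- GMPs, against 8.35 in WT GMPs, 1.56-fold higher. Among the 19 members that reached 6, *Cxcl9* alone was higher in both *Bcl11a*-/- populations. Of all 13949 probe sets that reached 6 on any array, 24.0% were higher in both. *Cxcl10*, which uses the same receptor, was 8.32 in *Bcl11a*-/- MPPs, against 7.90 in WT MPPs, and 8.75 in *Bcl11a*-/- GMPs, against 8.92 in WT GMPs, with both differences within 2-fold. The remaining ligand of Cxcr3, *Cxcl11*, stayed under 6 on all arrays, with a log2 difference of 0.29 in MPPs and −0.06 in GMPs. On the list of 11 measured interferon-stimulated genes, which includes *Cxcl9* and *Cxcl10*, *Cxcl9* was the only gene over 2-fold in either population, and the list medians were 0.22 in MPPs and −0.08 in GMPs.

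The neutrophil attractants *Cxcl1* and *Cxcl2* differed little in MPPs. *Cxcl2*, a ligand of Cxcr2, was 8.37 in *Bcl11a*-/- MPPs, against 8.29 in WT MPPs, and 8.24 in *Bcl11a*-/- GMPs, against 9.21 in WT GMPs, 1.97-fold lower. WT GMPs thus stood above the other arrays, which lay close together. *Cxcl1* passed the level of 6 in WT GMPs alone, at 6.01, with 5.66 in *Bcl11a*-/- GMPs, 5.77 in *Bcl11a*-/- MPPs and 5.76 in WT MPPs. Among the other members that bind Cxcr2, *Cxcl3* and *Cxcl5* were under 5 on all 4 arrays. The homeostatic ligands *Ccl19*, which binds Ccr7, and *Ccl25*, which binds Ccr9, reached 6 with 1 probe set each. That of *Ccl19* was 6.001 in *Bcl11a*-/- MPPs, against 6.32 in WT MPPs, and 5.86 in *Bcl11a*-/- GMPs, against 5.87 in WT GMPs. That of *Ccl25* was 6.39 in *Bcl11a*-/- MPPs, against 6.33 in WT MPPs, and 6.10 in *Bcl11a*-/- GMPs, against 6.15 in WT GMPs.

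Receptors differed in both directions in MPPs. *Cxcr2*, the receptor that draws neutrophils, was 9.84 in *Bcl11a*-/- MPPs, against 8.82 in WT MPPs, 2.03-fold higher. In GMPs it was 8.51 in *Bcl11a*-/- and 8.63 in WT cells. The *Bcl11a*-/- MPP array thus stood alone, above the other 3. *Cxcr3*, the receptor of Cxcl9 and Cxcl10 on T and NK cells, had the same pattern, at 6.52 in *Bcl11a*-/- MPPs, against 5.47 in WT MPPs, 2.07-fold higher, with 5.32 in *Bcl11a*-/- GMPs and 5.59 in WT GMPs. *Ccr3*, known as the eotaxin receptor of eosinophils, was 5.60 in *Bcl11a*-/- MPPs, against 4.57 in WT MPPs, 2.04-fold higher, and 4.40 in *Bcl11a*-/- GMPs, against 4.16 in WT GMPs. It stayed under 6 on every array, and its MPP difference was 0.60 once signals under 5 were set to 5. *Cxcr2*, *Cxcr3* and *Ccr3* all lay within 0.05 log2 units of the 2-fold line, and each was within 2-fold under at least 1 alternative normalization. The *Cxcr2* difference was larger under others, at 1.14 after lowess centring. It was 1.25 and 1.36 with the 2 or all 4 arrays quantile normalized anew.

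*Ccr7* and *Ccr2* lay at the 2-fold line on the other side. *Ccr7*, which brings lymphocytes and DCs to lymph nodes through Ccl19 and Ccl21, was 5.36 in *Bcl11a*-/- MPPs, against 6.38 in WT MPPs, 2.02-fold lower, and 5.13 in *Bcl11a*-/- GMPs, against 5.29 in WT GMPs. WT MPPs were the only cells in which it reached 6. *Ccr2*, the receptor of Ccl2 on monocytes, was 9.18 in *Bcl11a*-/- MPPs, against 10.18 in WT MPPs, a log2 difference of −0.999 that lay just within 2-fold. The *Ccr2* difference was −1.05 after median centring and −0.87 after lowess centring. With the 2 or all 4 arrays quantile normalized anew it was −0.74 and −0.82. The GMP signals of *Ccr2* were 9.91 in *Bcl11a*-/- cells and 10.21 in WT cells. The *Bcl11a*-/- MPP array was thus the lowest for *Ccr2*.

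*Cxcr4*, *Ccr1*, *Cx3cr1* and *Cxcr6* were within 2-fold between genotypes in both populations. *Cxcr4*, the receptor that keeps progenitors in the BM, was 9.99 in *Bcl11a*-/- MPPs, against 10.20 in WT MPPs, and 10.19 in *Bcl11a*-/- GMPs, against 10.30 in WT GMPs. Its MPP difference was −0.21, and 0.14 with the pair of arrays quantile normalized anew. *Ccr1*, the receptor of Ccl3, Ccl5 and Ccl9, was 6.84 in *Bcl11a*-/- MPPs, against 6.69 in WT MPPs, and 7.10 in *Bcl11a*-/- GMPs, against 7.74 in WT GMPs, 1.56-fold lower. So the receptor of *Ccl3* and *Ccl9* was within 2-fold in MPPs, where both ligands were lower by more than 2-fold. *Cx3cr1*, which marks monocytes and their progenitors, was 6.95 in *Bcl11a*-/- MPPs, against 7.28 in WT MPPs, and 6.29 in *Bcl11a*-/- GMPs, against 6.58 in WT GMPs. *Cxcr6*, the receptor of Cxcl16, was 6.20 in *Bcl11a*-/- MPPs, against 6.06 in WT MPPs, and 5.47 in *Bcl11a*-/- GMPs, against 5.77 in WT GMPs.

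Markers of mature cells that use these receptors were read from lists, some of which differed between the MPP arrays and some of which hardly did. Late neutrophil genes, for *Cxcr2*, had a median signal of 10.49 in *Bcl11a*-/- MPPs and 9.23 in WT MPPs over 13 measured genes, but the median of the differences gene by gene was 0.28, with 11 of 13 above 0 and *Mmp8* and *Chil3* higher by more than 2-fold, at 1.54 and 1.53. *S100a8* and *S100a9*, abundant granulocyte genes, were at −0.07 and 0.03. In GMPs 12 of these 13 were below 0. T and NK genes, for *Cxcr3*, had a median of 5.43 in *Bcl11a*-/- MPPs and 5.31 in WT MPPs over 14 genes, of which 4 reached 6 on any array, with a median difference of 0.08, 8 above 0 and 6 below, *Cd3d* at 1.07 and *Nkg7* at −1.22. Basophil and eosinophil genes, for *Ccr3*, had a median of 7.26 in *Bcl11a*-/- MPPs and 6.76 in WT MPPs over 12 genes, with a median difference of 0.13, 8 above 0, *Epx* at 0.92 and *Prg2* at −1.30. B lineage genes, for *Ccr7*, had a median of 4.98 in *Bcl11a*-/- MPPs and 7.47 in WT MPPs, and 12 of 14 were lower by more than 2-fold, *Vpreb1*, *Cd79a* and *Ebf1* furthest at −4.25, −4.14 and −3.83. Plasmacytoid DC genes had a median of 6.81 in *Bcl11a*-/- MPPs and 7.50 in WT MPPs, with a median difference of −0.45, 6 of 10 below 0 and 4 above, *Bst2* at −1.79 and *Cox6a2* at −1.76. *Flt3*, on the MPP list, was at −1.60. The part of such cells in the receptor differences was not tested.

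**Figure D2:**
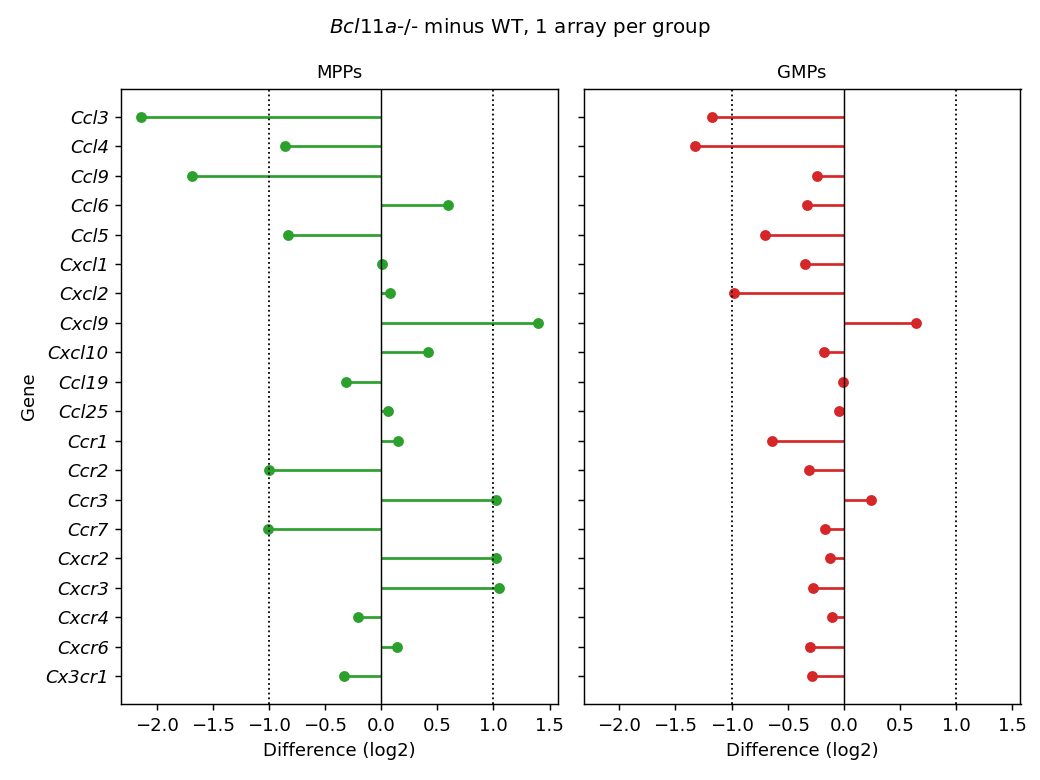
Log2 difference, *Bcl11a*-/- minus WT (x axis), in MPPs (left) and GMPs (right) for the same 20 probe sets, 1 point per gene from 1 array per group, with dotted lines at a 2-fold difference. In MPPs *Ccl3* (−2.14) and *Ccl9* (−1.69) lie beyond the left line and *Cxcl9* (1.40) beyond the right one, whereas in GMPs only *Ccl3* (−1.18) and *Ccl4* (−1.32) pass a line.

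Counted over the family, 3 of 54 members were more than 2-fold lower in *Bcl11a*-/- MPPs (*Ccl3*, *Ccl9* and *Ccr7*), where 2.51% of all probe sets were. There were 4 that were higher (*Cxcl9*, *Cxcr2*, *Cxcr3* and *Ccr3*), where 1.39% of all probe sets were, and 47 were within 2-fold. Among the 18 members that reached 6 on either MPP array, 3 were lower and 3 higher, beside 4.82% and 1.63% of the 13462 probe sets at that level. *Ccr7* was among the 18 only through WT MPPs and *Cxcr3* only through *Bcl11a*-/- MPPs, the array on which each was higher. The median difference was 0.05 over the 54 members and −0.08 over these 18, next to 0.05 and −0.04 over all probe sets counted the same way. The family median was thus close to that of all probe sets, with single members past 2-fold on both sides.

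In *Bcl11a*-/- GMPs 2 of 54 members were lower by more than 2-fold (*Ccl3* and *Ccl4*), where 0.35% of all probe sets were, and none was higher, where 0.319% were. Among the 15 members at a signal of 6 on either GMP array these 2 stood beside 0.384% lower and 0.431% higher over the 12748 probe sets at that level. Of these 15 members 14 had less signal in *Bcl11a*-/- GMPs, *Cxcl9* being the exception, while 53.7% of the probe sets at that level were below 0. *Cxcl1* was among the 14 only through WT GMPs, where it passed the level. Over all 54 members 32 were below 0, beside 48.0% of all probe sets, and of the 39 members under 6 on both GMP arrays 18 were below 0 and 21 above. The median of the 15 members at a signal of 6 was −0.31, next to −0.02 over the probe sets at that level. For the 39 members under 6 it was 0.01. In MPPs 9 of 18 were below 0, beside 54.1%. The count of 14 of 15 stood under each of the other centrings and normalizations tried, a check added after the values were seen. Other cell types differed between the GMP arrays too. Erythroid genes were more than 2-fold higher in *Bcl11a*-/- GMPs for 10 of 13 measured and lower for none, led by *Hba-x* at 3.79, *Rhag* at 2.14 and *Car1* at 2.08, and 1 of 13 (*Hba-x*, 3.17) was higher in *Bcl11a*-/- MPPs. B lineage genes were more than 2-fold lower in *Bcl11a*-/- GMPs for 6 of 14 (*Vpreb3*, *Vpreb1* and *Spib* at −2.01, −1.72 and −1.05), and among basophil and eosinophil genes *Epx* and *Prg3* were at −1.98 and −1.02 and *Gata2* at 1.19. Their part in the 14 lower members was not tested.

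**Figure D3:**
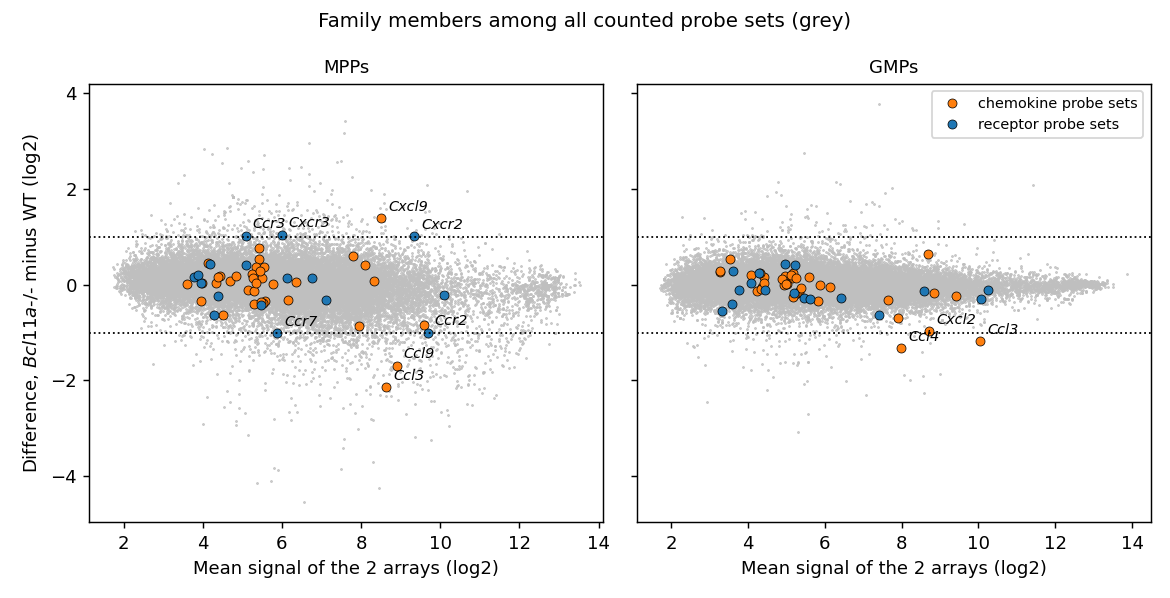
Log2 difference, *Bcl11a*-/- minus WT (y axis), against the mean log2 signal of the 2 arrays (x axis) for all 28853 probe sets (grey), with chemokine probe sets in orange and receptor probe sets in blue, in MPPs (left) and GMPs (right). Dotted lines mark a 2-fold difference, and in GMPs, where the grey cloud is narrower, *Ccl3* and *Ccl4* lie below the lower line with *Cxcl2* (−0.98) beside it.

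The genotype difference was larger in size in MPPs than in GMPs for 14 of the 19 members that reached 6, and also for 67.8% of the 13949 probe sets that reached 6 on any array. The MPP difference minus the GMP difference was −1.45 for *Ccl9*, 1.32 for *Cxcr3*, 1.15 for *Cxcr2*, 1.06 for *Cxcl2* and −0.96 for *Ccl3*. It was 0.47 for *Ccl4* and −0.13 for *Ccl5*, whose genotype differences were thus more alike in the 2 populations. For 9 of the 19 the signal was lower in both *Bcl11a*-/- populations, beside 31.5% of those probe sets, and for another 9 the direction differed between MPPs and GMPs, beside 44.3%. None of these differences between populations was tested, since each rests on 4 single arrays.

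MPPs and GMPs of the same genotype were also compared, on arrays that the genotype comparisons share. *Ccl5* was the member furthest toward MPPs in both genotypes. It was 9.16 in MPPs and 7.55 in GMPs of *Bcl11a*-/- donors, 3.06-fold higher in MPPs, and 9.996 in MPPs and 8.25 in GMPs of WT donors, 3.35-fold higher. *Ccl3* had less signal in MPPs than in GMPs, by 3.70-fold in *Bcl11a*-/- cells and by a log2 difference of −0.92 in WT cells. *Ccl9* was 2.37-fold lower in MPPs than in GMPs of *Bcl11a*-/- donors, whereas in WT cells it was higher by 0.20. *Cxcr2*, *Cxcr3* and *Ccr3* were higher in MPPs than in GMPs by 2.52-fold, 2.29-fold and 2.28-fold among *Bcl11a*-/- cells, and among WT cells their differences were 0.19, −0.12 and 0.41. In WT cells *Ccr7* was 2.12-fold higher in MPPs, and *Ccr1* and *Cxcl10* were 2.07-fold and 2.03-fold lower. In *Bcl11a*-/- cells these were at 0.23, −0.26 and −0.43.

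Over the family, 2 of 54 members were more than 2-fold lower in *Bcl11a*-/- MPPs than in *Bcl11a*-/- GMPs (*Ccl3* and *Ccl9*) and 4 were higher (*Ccl5*, *Cxcr2*, *Cxcr3* and *Ccr3*), where 5.91% of all probe sets were lower and 3.08% higher. At a signal of 6 on either array the members were 2 and 3 of 17, beside 12.1% and 4.84% of probe sets. *Cxcr3* was among these 17 only through *Bcl11a*-/- MPPs, where it was higher. In WT cells 2 members were lower in MPPs (*Ccr1* and *Cxcl10*) and 2 higher (*Ccl5* and *Ccr7*), where 2.67% of all probe sets were lower and 1.55% higher, and 5.46% and 2.54% of those at a signal of 6. Between MPPs and GMPs of *Bcl11a*-/- donors, the share of members on the lower side was thus no larger than that of all probe sets. On the higher side it was larger, with 4 of 54 members beside 3.08%. *Ccr2* and *Cxcr4*, the receptors with the smallest WT differences among those that reached 6, were at −0.04 and −0.10, and both were above 0 with the arrays quantile normalized anew, at 0.24 and 0.18.

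**Figure D4:**
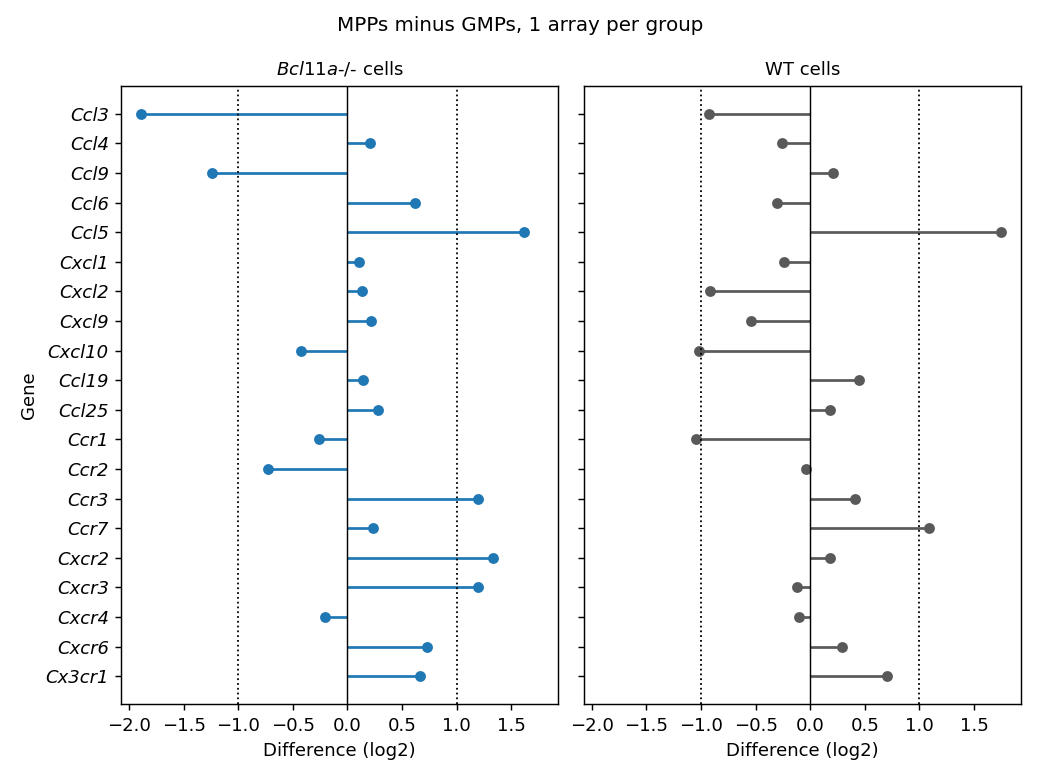
Log2 difference, MPPs minus GMPs (x axis), in *Bcl11a*-/- cells (left) and WT cells (right) for the same 20 probe sets, 1 point per gene from 1 array per group, with dotted lines at a 2-fold difference. *Ccl5* lies beyond the right line in both panels (1.61 and 1.74), and *Cxcr2* does so in *Bcl11a*-/- cells only (1.33, against 0.19 in WT cells).

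The other 35 member probe sets, 26 of chemokines and 9 of receptors, stayed under 6 on all 4 arrays, and 16 members stayed under 5. Their values ran between 3.05 and 5.81. *Cxcl12*, the Cxcr4 ligand that BM stroma makes, was 4.54 in *Bcl11a*-/- MPPs, against 4.35 in WT MPPs, and 4.49 in *Bcl11a*-/- GMPs, against 4.34 in WT GMPs. *Ccr9*, a receptor of thymus-seeding progenitors and of plasmacytoid DCs, was 3.96 in *Bcl11a*-/- MPPs, against 4.59 in WT MPPs, and 4.09 in *Bcl11a*-/- GMPs, against 4.06 in WT GMPs. *Cxcl16*, the ligand of Cxcr6, was 5.81 in *Bcl11a*-/- MPPs, against 5.03 in WT MPPs, and 5.01 in *Bcl11a*-/- GMPs, against 4.99 in WT GMPs, so that the *Bcl11a*-/- MPP array again stood alone. *Ccl20*, the ligand of Ccr6, was 5.69 in *Bcl11a*-/- MPPs, against 5.15 in WT MPPs, and 4.95 in *Bcl11a*-/- GMPs, against 4.84 in WT GMPs. *Ccr3* was the only member under 6 that passed 2-fold in any comparison. At such signals a difference can be compressed toward 0, and a low value does not show that a gene is not transcribed.

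*Ccl19* had 5 probe sets, 2 of them with identical values, and *Ccl25* had 2. Probe sets with the same symbol can read the same transcript, so they were not taken as replicates of each other. The MPP differences ran from −0.38 to −0.32 for *Ccl19*, all below 0, and were 0.06 and 0.22 for *Ccl25*. A further 7 probe sets carry a matching symbol beside others and were not counted as members. Those of the *Ccl21* genes, ligands of Ccr7, gave the same value in all 4 sets, 6.03 in *Bcl11a*-/- MPPs, against 6.16 in WT MPPs, and 5.76 in *Bcl11a*-/- GMPs, against 5.78 in WT GMPs. The others, of the *Ccl27* genes, were 5.97 or 6.78 in *Bcl11a*-/- GMPs, against 5.57 and 6.37 in WT GMPs. They were thus higher by 0.40 and 0.42 in GMPs, and their MPP differences were −0.01 and 0.16. Of 60 mouse genes in RefSeq whose names fit the rule, 11 are not among the members, 4 of them pseudogenes.

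Of 12 relatives that the naming rule leaves out, 2 passed 2-fold between genotypes in 1 population each. *Pf4* (platelet factor 4, a CXC chemokine of platelets) was 6.05 in *Bcl11a*-/- MPPs, against 4.85 in WT MPPs, a log2 difference of 1.20, and 7.59 in *Bcl11a*-/- GMPs, against 7.94 in WT GMPs. *Ppbp*, the other platelet chemokine, was 5.43 in *Bcl11a*-/- GMPs, against 3.57 in WT GMPs, a difference of 1.86, and 3.97 in *Bcl11a*-/- MPPs, against 3.86 in WT MPPs. Among 8 measured megakaryocyte genes, which include *Pf4* and *Ppbp*, all 8 were above 0 in MPPs and 6 in GMPs. The other 10 relatives, atypical receptors and the ligands and receptors of the XC and CX3C classes among them, were within 2-fold in both populations, and all 12 were above 0 in MPPs. Of all probe sets, 44.0% were below 0 in MPPs and 48.0% in GMPs. Only 3 of the 12 relatives reached 6 on any array. Among the 36 members under 6 on both MPP arrays, 24 were above 0 in MPPs. *Ccrl2*, an atypical receptor that binds chemerin, was 7.51 in *Bcl11a*-/- MPPs, against 6.71 in WT MPPs, and 7.41 in *Bcl11a*-/- GMPs, against 7.47 in WT GMPs.

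The machinery downstream of the receptors was read from a gene list. None of 36 measured genes of chemokine receptor signaling, of 38 listed, was over 2-fold in either population, and their medians were 0.03 in MPPs and −0.08 in GMPs. The list holds G protein subunits, receptor kinases, arrestins, regulators of G protein signaling and activators of Rac, among others. The same held for 16 other chemoattractant receptors (medians 0.03 and −0.23) and for 21 homing and adhesion genes (0.08 and −0.08). In MPPs 7 member probe sets passed 2-fold, and no gene of these 3 lists did. Among all probe sets, the MPP shares past 2-fold were 2.51% on the lower side and 1.39% on the higher side. The GMP shares were 0.35% and 0.319%. With shares this small, a list of this length can lack such a gene without standing apart from all probe sets. Stromal and endothelial genes, markers of other cells that make chemokines, had no gene over 2-fold among 16 measured, with median signals of 5.48 in *Bcl11a*-/- MPPs, 5.19 in WT MPPs, 5.03 in *Bcl11a*-/- GMPs and 4.99 in WT GMPs.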

How the data were processed

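The study used 4 one-color arrays, 1 per group, of RNA from sorted and pooled cells. After amplification and biotin labeling, the authors used ArrayStar (version not given) to compute log2 signals with RMA, which were quantile normalized, and deposited 1 value per probe set and array. Such normalization can mask a shift in the total mRNA of a cell. Of 30177 rows, the 1324 with the lowest identifiers, none annotated, were taken as controls and set aside. Symbols came from the platform annotation and all members' symbols matched RefSeq (GRCm38.p6).

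Log2 differences were taken per probe set (*Bcl11a*-/- minus WT, and MPPs minus GMPs), and those of more than 2-fold were counted. No test was possible with 1 array per group. No level of one probe set was set against that of another. The members, the 17 gene lists and the alternatives were chosen with earlier results of these data known. Named with values were the members that reached 6, that were over 2-fold in any comparison, or that lay nearest to 6. Up to 3 genes per list and direction were also named, among those over 2-fold with a signal of at least 6. *Cxcl3*, *Cxcl5*, *Cxcl11*, *Cxcl12*, *Ccl20*, *Ccr9*, *Ppbp*, *Ccrl2*, *Epx*, *S100a8*, *S100a9* and the *Ccl21* and *Ccl27* genes were named after their values were seen. Alternatives were a floor at 5, a signal of at least 6, median or lowess centring (span 0.3), quantile normalization anew, thresholds of 1.5-fold and 3-fold, counting by gene, and adding probe sets with several symbols. Counting was tested on simulated arrays. Python 3.11.15, pandas 2.3.3, numpy 2.4.6, statsmodels 0.14.6 and matplotlib 3.10.9 were used.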

Additional observations from a re-analysis of the deposited data

Results flagged for a closer look

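*Cxcr2* and *Cxcr3* were over 2-fold higher in *Bcl11a*-/- than in WT MPPs and had less signal in *Bcl11a*-/- than in WT GMPs. The MPP difference minus the GMP difference was 1.15 for *Cxcr2* (1.02 in MPPs and −0.12 in GMPs) and 1.32 for *Cxcr3* (1.05 and −0.27). Each direction rests on 1 array per group, and the difference between the populations was not tested. Of the 19 members that reached a signal of 6, 9 had opposite directions in the 2 populations, and of those 9 only *Cxcr2* and *Cxcr3* had a genotype difference over 2-fold.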

How the results depend on the processing

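*Ccl3* and *Ccl9* in MPPs, *Ccl3* and *Ccl4* in GMPs and *Cxcl9* in MPPs stayed over 2-fold under every centring, normalization and low-signal setting tried. Of 468 values of named members under these settings, 436 kept their side of the 2-fold line and either kept their direction or moved by at most 0.1. Small changes of sign within 2-fold are thus among the 436, as for *Cxcl1* in MPPs (0.007, and −0.04 after median centring). A further 15 were no longer over 2-fold, and 1 came to be. Another 16 values within 2-fold changed sign or went to 0 by a move of more than 0.1. No call changed direction. In *Bcl11a*-/- MPPs against WT MPPs, *Ccr3* was no longer over 2-fold under any of 5 settings (0.60 to 0.98), *Cxcr2* was at 0.98 after median centring and *Cxcr3* at 0.99 after lowess centring. In WT MPPs against WT GMPs, *Cxcl10* (−0.92 to −0.86), *Ccr1* (−0.99) and *Ccr7* (0.98) came within 2-fold under some. *Ccl9* in *Bcl11a*-/- MPPs against *Bcl11a*-/- GMPs was at −0.99 with that pair normalized anew.

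Counts moved with the threshold. For *Bcl11a*-/- against WT MPPs the 7 members over 2-fold were 14 at 1.5-fold and 2 at 3-fold, and for GMPs the 2 were 6 and 0. For MPPs against GMPs the 4 in WT cells were 11 and 1 (2 after lowess centring, 1 with the 4 arrays normalized anew), and the 6 in *Bcl11a*-/- cells were 15 and 2. Over members with a signal of at least 6, medians changed to −0.075 in MPPs (0.05 over all members) and −0.31 in GMPs (−0.07). In WT MPPs against WT GMPs the median of 0.18 was −0.068 at a signal of 6 and 0 with the floor at 5. In *Bcl11a*-/- cells the median of 0.15 was 0.049 after median centring, which takes off the median of 0.11 of all probe sets, 0.017 after lowess centring, 0.017 with the pair of arrays normalized anew and 0.016 with all 4. At a level of 5 in place of 6, 38 members reached it in place of 19. The causes were not tested. Having 1 array per group limits the precision.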
